A study of Mus musculus with 4 samples.

Results

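Mouse embryonic fibroblasts (MEFs), connective tissue cells cultured from embryos, were compared by genotype in hypertonic medium: cells labelled NFAT5/TonEBP knockout against wild-type cells, with 1 array on each side. These are 2 of the 4 arrays of the series. The remaining 2 hold the same genotypes in isotonic medium and are used here as the background genotype difference. Cells of all groups were unsynchronised and spent 20 hours in their medium, and the hypertonic medium had been brought to 450 mosmol/kg with NaCl. For isotonic medium the osmolality was not given in the sources used here. RNA of 4 samples per condition was pooled before it reached an Affymetrix Mouse Gene 1.0 ST array, so the spread among those samples is not seen and no test of any difference could be made. Every difference below therefore describes these pools, without a replicate spread to set it against. The labels name the cells only as MEFs with a genotype. The strain, the number of embryos or isolates, the passage, the clone and the deleted part of the gene were not given in the sources used here.

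NFAT5, also called TonEBP, is the transcription factor through which mammalian cells answer high salt. In hypertonic medium it enters the nucleus and binds tonicity-responsive enhancers, short DNA elements near genes that raise the content of organic osmolytes such as betaine, taurine, myo-inositol and sorbitol. These solutes let a cell regain its volume without a build-up of salt. NFAT5 is best known from the kidney medulla, but fibroblasts carry it too.

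The deposited values are signals on the log2 scale, on which a difference of 1 is 2-fold. When 4 values are listed for a gene, they stand in the order wild-type isotonic, wild-type hypertonic, knockout-labelled isotonic, knockout-labelled hypertonic. A difference is always knockout-labelled minus wild type, so a negative one means a lower signal in knockout-labelled cells. A gene was taken as measured when its signal passed that array's dim limit, the middle value over probe sets assigned to 1 gene (5.44 on the wild-type and 5.41 on the knockout-labelled hypertonic array) on at least 1 of these 2 arrays. Signals under it are called dim. They mix background with expression, and the size of a difference that rests on one is poorly determined. With the dim signal set to the limit such a difference is smaller, also where only the deposited one is given below. In 464 genes with a second probe set, the differences from the 2 probe sets lay a median of 0.11 apart and 4 gaps exceeded 2-fold, which describes error within an array only. In such bulk RNA, fewer cells of a kind and less RNA per cell cannot be told apart.

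The probe set of the targeted gene did not fall in the cells labelled knockout. Nfat5 read 7.74, 8.19, 8.03 and 8.24, a difference of 0.05 in hypertonic and 0.29 in isotonic medium. Whether the probes lie inside the deleted part is not known here, so this signal does not check the labels, and the cells are called knockout-labelled. Lower signals of genes known to depend on NFAT5, given below, do not replace such a check.

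Of 19938 genes with a one-gene probe set, 10374 were measured in hypertonic medium. Of these, 667 (6.43%) were at least 2-fold lower and 267 (2.57%) at least 2-fold higher in knockout-labelled cells. These shares are the background for each hypertonic list count below. At 4-fold the counts were 115 lower and 32 higher, and at 8-fold 27 lower and 7 higher. The median over all measured genes was -0.01, and 70.0% lay within 0.5 of 0. Among the lower genes 215 were dim on the knockout-labelled array, and among the higher ones 88 were dim on the wild-type array. Just inside and outside the limit on the lower side were Upk3b (5.85 in wild type, 4.84 in knockout-labelled cells) and Slc2a3 (5.58 and 4.58). On the higher side they were Kdf1 (4.49 and 5.50) and Zfp335 (6.46 and 7.46).

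The genotypes already differed in isotonic medium, but less. There 162 of 10191 measured genes (1.59%) were at least 2-fold higher and 130 (1.28%) lower, and 87.7% lay within 0.5 of 0. Of the genes lower in hypertonic medium, 95 were also lower by that limit in isotonic medium, which is 14.2% of the hypertonic set and 73.1% of the isotonic set. For higher genes the overlap was 65, or 24.3% of the hypertonic and 40.1% of the isotonic set. In 418 of the 667 lower genes (62.7%) and 120 of the 267 higher genes (44.9%), the isotonic difference stayed within 0.5 of 0. Over 10023 genes measured in both media the 2 differences, which share no array but share probe sets, had a Pearson r of 0.52 and a Spearman rho of 0.37 across genes, which are not independent replicates. Their SDs across genes were 0.62 in hypertonic and 0.40 in isotonic medium.

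**Figure D1:**
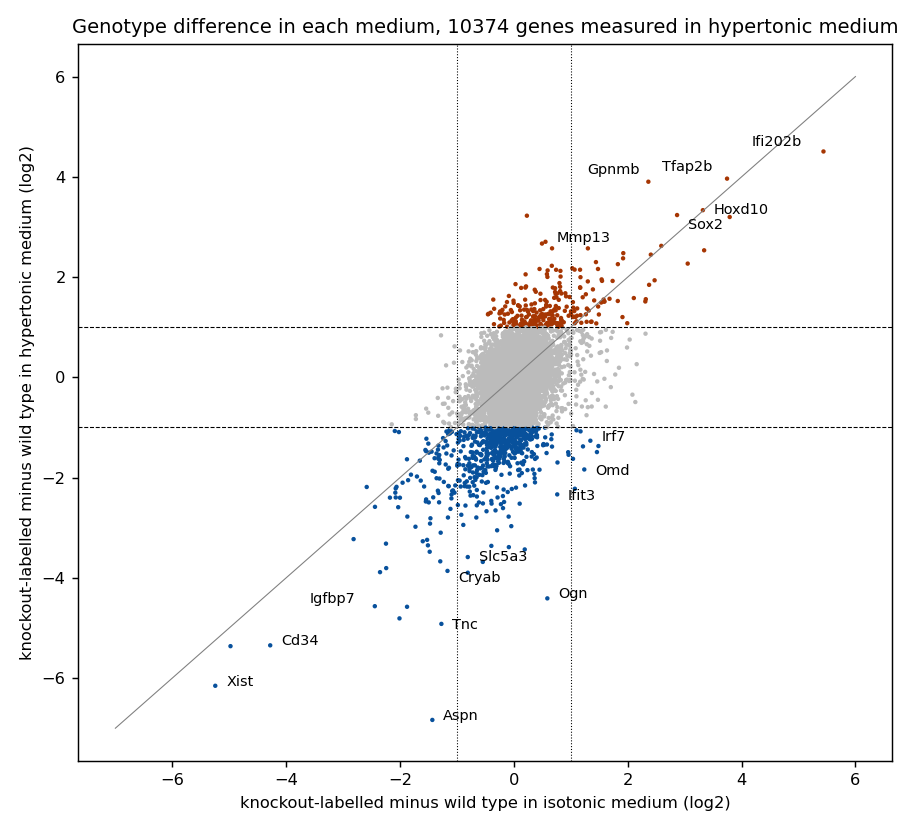
Each point is 1 of the 10374 genes measured in hypertonic medium, with the isotonic genotype difference (log2) on the horizontal and the hypertonic difference (log2) on the vertical axis. Blue points are the 667 lower and red points the 267 higher genes, dashed lines mark 2-fold and the grey diagonal marks equal differences; Xist, Cd34, Hoxd10 and Tfap2b lie near the diagonal, whereas Aspn, Ogn, Slc5a3 and Mmp13 lie far from it.

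Organic osmolyte transporters stood out among the lower genes. Of 21 genes written into a list of osmolyte transport and synthesis, 16 had a probe set and 14 were measured. Of the 14, 4 were at least 2-fold lower and 1 higher, against 6.43% and 2.57% of all measured genes. The list's median was -0.10, so the 4 transporters stood apart from the other members. Slc5a3, the sodium-coupled myo-inositol transporter, read 8.23, 10.03, 7.42 and 6.44. The wild-type hypertonic signal was the highest of the 4 and the knockout-labelled hypertonic one the lowest, a difference of -3.59 (12.0-fold) against -0.81 in isotonic medium. Slc6a12, the betaine transporter, was above the dim limit only in wild-type cells under salt, with 4.06, 6.38, 3.88 and 4.14. Its difference was -2.24, or -0.98 when the dim signal is set to the limit, so it passes 2-fold only with the dim signal taken as it stands. Slc6a9, a glycine transporter, read 8.42, 8.76, 7.60 and 6.58 (difference -2.18). Slc6a6, the taurine transporter, read 9.63, 9.80, 8.90 and 8.78, a difference of -1.02 in hypertonic and -0.73 in isotonic medium.

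Other members of the list did not follow these transporters. Slc38a2, which carries neutral amino acids, was at 11.32 in wild-type and 10.69 in knockout-labelled hypertonic cells (-0.62). Slc6a8, the creatine transporter, had the opposite order, with 7.30 and 8.21 (0.91). Chka, a choline kinase that draws choline into phosphatidylcholine, was the 1 member past 2-fold on the higher side, with 7.01, 6.50, 7.48 and 8.17 (1.67). The enzymes that break down or release glycerophosphocholine differed little: Gde1 by -0.01, Gdpd5 by 0.29 and Pnpla6, a lysophospholipase, by 0.04.

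A second list held other genes linked to tonicity; 24 of its 29 genes were measured, 11 were at least 2-fold lower and 0 higher, with a median of -0.37. Cryab, a small heat shock protein, read 7.47, 9.68, 6.30 and 5.82, a difference of -3.86 (14.5-fold). Aqp1, a water channel, read 9.20, 10.84, 8.27 and 8.10 (-2.74). In both genes each knockout-labelled signal lay below each wild-type signal, and only the wild-type pool was higher in salt than in isotonic medium. S100a4, a calcium-binding protein of motile cells, differed by -3.81 in hypertonic and by -2.24 in isotonic medium, so a large part of its difference was present without salt.

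Several genes of this list were lower in hypertonic medium and differed less, or the other way, in isotonic medium. Ranbp3l, which encodes a Ran-binding protein, read 3.31, 6.76, 3.22 and 3.38, above the dim limit only in wild-type hypertonic cells. Its difference was -3.39, and at least -1.36 against the dim limit. Kcnj2, an inward rectifier potassium channel, was likewise above the limit only there, with 3.78, 5.99, 3.46 and 3.34, but only -0.59 against the limit. Cdo1, the cysteine dioxygenase that opens the route to taurine, read 5.67, 8.04, 6.03 and 6.03, a difference of -2.01 against 0.36 in isotonic medium. Ddit4l, an inhibitor of mTOR signalling, differed by -1.38 and 0.67 in the respective media. Atp1b1, the beta subunit of the sodium pump, differed by -1.82 under salt and -0.59 without it. For the HSP110-family chaperone Hspa4l the values were -1.31 and -0.23. Outside this list, Nfatc4, from the calcineurin-dependent branch of the NFAT family, read 7.26, 8.14, 6.60 and 6.23 (-1.91 under salt and -0.66 without it). It was the only 1 of 9 measured genes in the list of NFAT family and calcineurin genes past 2-fold. That count is near the share of all measured genes (6.43% lower and 2.57% higher).

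**Figure D2:**
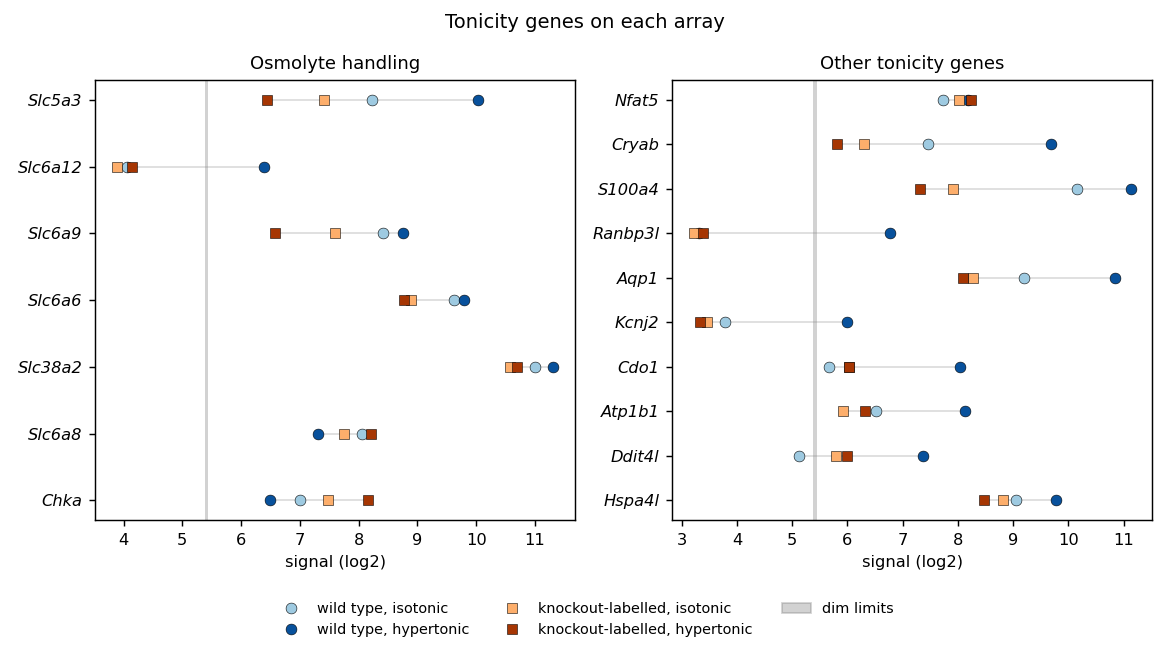
Signal (log2) of osmolyte genes (left) and other tonicity genes with Nfat5 (right) on each of the 4 arrays; circles are wild type, squares knockout-labelled, dark colours hypertonic, and the grey band spans the dim limits. For Slc5a3, Slc6a12, Ranbp3l, Cryab and Aqp1 the dark blue circle stands far to the right of the other 3 points, while the 4 points of Nfat5 lie close together.

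Among the lower tonicity genes, 11 of 15 had a promoter in the RefSeq table of GRCm38.p6, taken from 250 bases before to 50 after the annotated start. The core of the tonicity-responsive enhancer, TGGAAA, was searched on both strands. It was found in 2 of the 11, Slc6a12 and Ranbp3l, and in 21.5% of all 27025 promoters, so a match in a window of this length is common. The share was 15.8% over promoters of measured genes and 21.2% over those of all lower genes. The 250 bases before the start are shown for these 2 genes because they hold a match. Both were above the dim limit only in wild-type cells in salt. So was Kcnj2, whose promoter held no match. Capitals mark the match, on the printed strand 75 bases before the start in Slc6a12 and on the opposite strand 248 bases before it in Ranbp3l.
Slc6a12, chr6:121342324-121342573, plus strand: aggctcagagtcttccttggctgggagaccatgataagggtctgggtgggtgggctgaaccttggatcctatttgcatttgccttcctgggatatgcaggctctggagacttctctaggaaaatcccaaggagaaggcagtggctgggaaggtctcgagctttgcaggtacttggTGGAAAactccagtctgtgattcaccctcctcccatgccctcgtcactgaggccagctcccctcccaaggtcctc
Ranbp3l, chr15:8967699-8967948, plus strand: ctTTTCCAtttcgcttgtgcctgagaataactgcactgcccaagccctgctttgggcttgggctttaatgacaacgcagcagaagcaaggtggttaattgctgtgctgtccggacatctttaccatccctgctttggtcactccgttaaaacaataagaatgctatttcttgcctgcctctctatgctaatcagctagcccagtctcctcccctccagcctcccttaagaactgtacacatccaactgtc

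Many extracellular matrix genes were lower, among them Aspn, Tnc, Ogn and Lama4 of the 20 most negative named differences. Small leucine-rich proteoglycans, which bind collagen fibrils and set their spacing, had 7 measured members of 16, 6 of them at least 2-fold lower. Aspn (asporin) read 8.91, 11.00, 7.48 and 4.16, the most negative difference of all named genes at -6.83, or -5.59 against the dim limit. The knockout-labelled pool was high in isotonic medium and dim in hypertonic medium. Ogn (osteoglycin) showed that order too, with 6.92, 8.31, 7.51 and 3.90, a difference of -4.41 under salt and 0.59 without it. Omd (osteomodulin) changed sign with the medium, reading 4.46, 5.89, 5.70 and 4.05, that is -1.84 (-0.49 against the dim limit) and 1.24. Fmod (fibromodulin) was dim in both knockout-labelled pools, with -2.81 under salt (-1.34 against the dim limit) and -1.47 without it. Bgn (biglycan) read 11.01, 11.32, 9.91 and 9.76 (-1.56), and Podnl1 differed by -1.05. Nyx (nyctalopin) was the 1 measured member not past the limit (0.31).

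Matricellular and elastic fibre proteins followed, with 12 of 25 measured genes at least 2-fold lower, 1 higher and a median of -0.99. Tnc, the adhesion-modulating glycoprotein tenascin C, read 7.35 in isotonic and 5.09 in hypertonic knockout-labelled cells, against 8.62 in isotonic wild-type cells and a higher signal still in salt, a difference of -4.92 (30.2-fold) that stayed at -4.60 against the dim limit. Vcan, the large proteoglycan versican, read 7.71, 8.03, 5.99 and 5.05 (-2.98), and Mfap5, a microfibril protein, 7.80, 8.03, 6.33 and 5.11 (-2.92). For these 3 genes the knockout-labelled signal was lower in both media and lowest under salt. Postn (periostin) differed by -2.40 under salt and -0.29 without it. Lox, which crosslinks collagen and elastin, was at -1.57, its relative Loxl1 at -1.37 and the elastic fibre adaptor Fbln5 at -1.83. In the other direction, Ccn3 read 7.47, 7.39, 7.65 and 8.75 (1.35), and its relative Ccn2 was at 8.59 and 9.43 in hypertonic medium (0.84).

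Among 21 measured collagen genes 8 were at least 2-fold lower and 0 higher, with a median of -0.73 against -0.32 for the same genes in isotonic medium. With no dim limit the hypertonic median was -0.28. Col1a1 and Col1a2, the chains of type I collagen, read 12.43, 12.57, 11.76 and 10.93, and 12.06, 12.10, 11.88 and 10.68. Both were lowest in knockout-labelled hypertonic cells, with differences of -1.64 and -1.41. Col3a1, of fibrillar type III collagen, differed by -1.67, and Col6a1, of the beaded microfibrils, read 8.79, 9.49, 8.01 and 7.31 (-2.18). Basement membrane genes were split, with 4 of 14 lower and 1 higher. The laminin chain Lama4 led the lower ones with 7.05, 7.26, 5.54 and 3.91 (-3.35, or -1.86 against the dim limit). The higher one was Lamb1, with 8.54, 7.61, 8.45 and 9.24 (1.62 under salt and -0.09 without it).

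**Figure D3:**
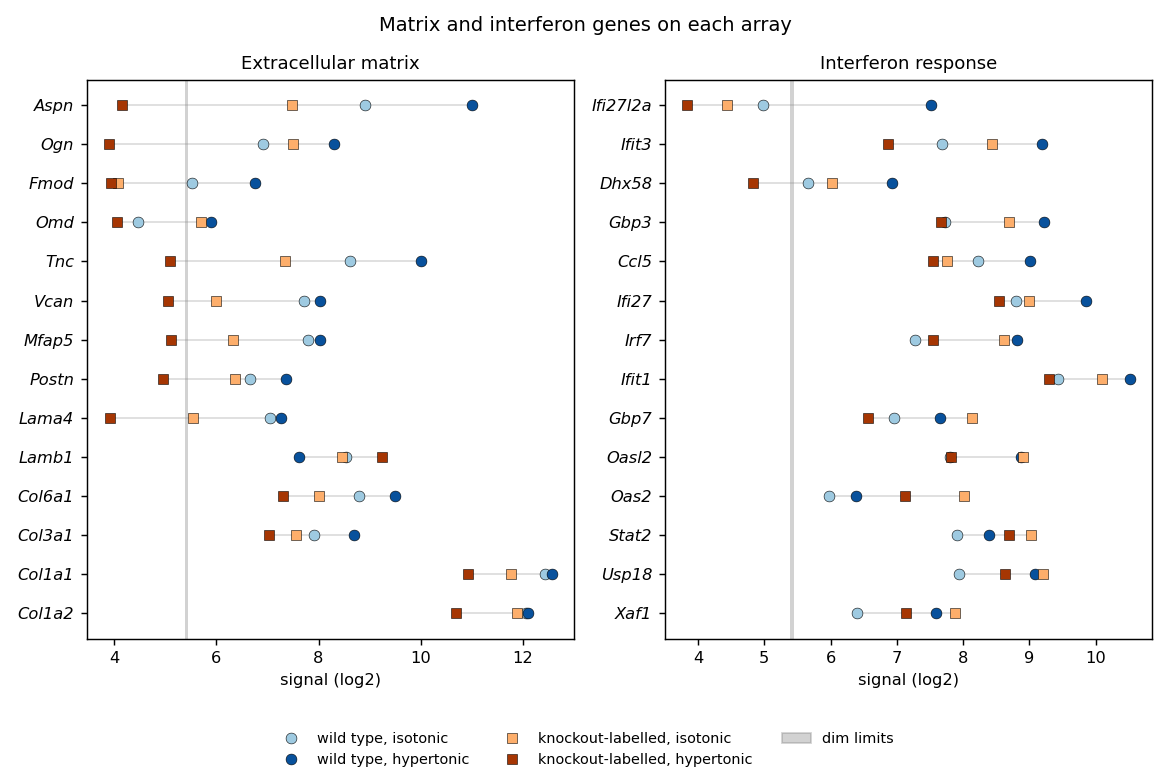
Signal (log2) of matrix genes (left) and interferon response genes (right) on each array; circles are wild type, squares knockout-labelled, dark colours hypertonic, and the grey band spans the dim limits. In the matrix panel the dark red square is leftmost for every gene drawn except Lamb1; in the interferon panel the light orange square lies right of the light blue circle for 12 of 14 genes, all but Ifi27l2a and Ccl5, and the dark red square left of the dark blue circle for all but Oas2 and Stat2.

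For most interferon response genes the genotype difference had opposite signs in the 2 media. Of 36 genes with a probe set 33 were measured, 10 of them at least 2-fold lower in knockout-labelled hypertonic cells and 0 higher, with a median of -0.45. In isotonic medium the same 33 genes had a median of 0.82, with 13 at least 2-fold higher and 0 lower. Over all genes measured in that medium the shares were 1.59% higher and 1.28% lower. The sign was positive in isotonic and negative in hypertonic medium for 22 of the 33. Their median signals, in the same order of pools, were 7.68, 8.33, 8.38 and 7.81, so wild-type cells were higher in salt and knockout-labelled cells lower. Signals were higher in wild-type hypertonic than in wild-type isotonic cells for 31 of the 33, and lower in knockout-labelled hypertonic than in knockout-labelled isotonic cells for 29. With 1 pool per medium, the difference between the media was not tested.

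Ifit3, an antiviral protein with tetratricopeptide repeats, read 7.68, 9.20, 8.44 and 6.86, a difference of -2.34 under salt and 0.76 without it. Ifit1, which binds viral RNA, read 9.44, 10.52, 10.10 and 9.29 (-1.23 and 0.66). Irf7, the factor that amplifies type I interferon production, read 7.27, 8.81, 8.61 and 7.54 (-1.26 and 1.34). In each of these 3 the wild-type hypertonic and knockout-labelled isotonic pools were the high ones. Gbp3, a guanylate-binding protein, and the RNA helicase Dhx58 had the same order, with -1.55 and 0.96 for the former and -2.10 and 0.37 for the latter. Ifi27l2a was dim except in wild-type hypertonic cells (4.98, 7.52, 4.44 and 3.84, a difference of -3.68). The list was not uniform: Oas2, a sensor of double-stranded RNA, read 5.97, 6.38, 8.01 and 7.13 (0.75 and 2.03) and Stat2, a signal transducer of the interferon receptor, was above wild type in both media (0.31 and 1.12).

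Genes that process antigen for MHC class I did not pass 2-fold in either direction in hypertonic medium (0 of 12), a share near that of all genes (6.43% lower and 2.57% higher). Tap1, a subunit of the peptide transporter, came closest with -0.99 under salt and 0.78 without it. Ccl5, an inflammatory chemokine often counted with interferon targets, was lower in both media (-1.48 and -0.47).

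The interferon-stimulated response element, spelled GAAANNGAAA and searched on both strands, was present in the promoters of 4 of the 6 lower interferon genes for which RefSeq gave one (of 10): Gbp3, Gbp7, Ifit1 and Ifit3. It was present in 3.49% of all promoters of that window, in 2.81% of those of measured genes and in 4.62% of those of all lower genes. The sequences of Ifit3 and Ifit1 are shown because these neighbouring genes had the order described above; capitals mark the matches, 156 and 122 bases before the start of Ifit3 and 104 and 85 before that of Ifit1. A match is a description of these letters and not of a bound site.
Ifit3, chr19:34583279-34583528, plus strand: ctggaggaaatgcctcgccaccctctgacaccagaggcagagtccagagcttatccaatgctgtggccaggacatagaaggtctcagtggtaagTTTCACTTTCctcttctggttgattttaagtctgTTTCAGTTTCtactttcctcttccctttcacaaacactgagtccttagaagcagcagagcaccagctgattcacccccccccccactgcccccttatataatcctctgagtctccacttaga
Ifit1, chr19:34640639-34640888, plus strand: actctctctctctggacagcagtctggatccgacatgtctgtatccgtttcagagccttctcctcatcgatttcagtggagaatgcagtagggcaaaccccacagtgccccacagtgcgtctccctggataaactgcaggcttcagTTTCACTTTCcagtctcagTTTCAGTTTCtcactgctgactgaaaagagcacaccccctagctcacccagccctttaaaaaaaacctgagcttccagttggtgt

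Secreted growth factors and their modulators held lower and higher genes side by side: of 27 measured, 7 were at least 2-fold lower and 5 higher. Igfbp5, an insulin-like growth factor binding protein, read 6.42, 8.66, 4.41 and 3.85 (-4.81, or -3.26 against the dim limit). Igfbp7, a secreted relative, read 8.11, 10.31, 5.67 and 5.74 (-4.57). Both were high in wild-type cells, higher still in salt, and lower by more than 2 on the log2 scale in knockout-labelled cells of either medium. Fgf10, a mesenchymal signal to epithelia, read 5.75, 7.43, 4.27 and 3.95 (-3.48, or -2.02 against the dim limit). Vegfd, a lymphangiogenic factor, read 8.46, 9.13, 8.27 and 6.52 (-2.61 under salt and -0.19 without it). The receptors Pdgfra, Pdgfrb and Fgfr2 differed by -1.57, -1.55 and -1.61. On the higher side, Pdgfb, a ligand of the PDGF receptors, read 6.27, 5.25, 6.94 and 7.82 (2.57), so ligand and receptor genes went opposite ways in hypertonic medium. Fgf7 (1.95 and 1.54) and Kitl, the ligand of KIT (1.85 and 2.38), were higher in both media, and Gdnf read 7.20, 5.90, 7.20 and 7.38 (1.48 and 0.00). Prl2c5, a proliferin of the prolactin family, was above the dim limit only in knockout-labelled hypertonic cells (6.29, against 3.07 in wild-type hypertonic cells, and 0.85 against the limit).

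Lists of signalling genes of mesenchyme and of contractile cells held lower genes and 0 higher ones, to be read against 6.43% lower over all genes. In the WNT list 6 of 19 measured genes were at least 2-fold lower, among them the ligand Wnt5a (5.62, 5.76, 3.54 and 3.54, only -0.35 against the dim limit) and the receptors Fzd1 (-1.78) and Fzd2 (-1.57). In the TGF-beta and BMP list it was 3 of 24: Ltbp2, a latent TGF-beta binding protein family member (-2.58), the BMP antagonist Grem1 (-2.44) and the co-receptor Tgfbr3 (-2.18). Of the smooth muscle and YAP target list 4 of 17 were lower and 0 higher. Acta2, smooth muscle actin, read 11.13, 11.65, 9.64 and 9.16 (-2.50), Tagln 9.99, 9.78, 7.91 and 7.48 (-2.30). Differences of like size stood in isotonic medium for Wnt5a (-2.08), Ltbp2 (-2.44) and Tagln (-2.08), whereas Fzd2 (-0.25) differed little there.

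Adhesion and inflammatory genes were mixed. Of 20 measured integrins and adhesion genes 5 were at least 2-fold lower and 2 higher. Cd34, a sialomucin of stromal and blood progenitor cells, read 9.91, 10.32, 5.63 and 4.97, a difference of -5.35 under salt and -4.28 without it. The gap junction gene Gja1 differed by -1.51 and -0.15. The higher ones were the laminin-binding integrin Itga7 (5.45 in wild-type and 7.44 in knockout-labelled hypertonic cells) and Vcam1, a receptor for leukocyte integrins (1.25 and 0.27). Of 10 measured cytokine and chemokine genes 4 were lower, among them Cxcl5 (-3.27, or -2.13 against the dim limit), the pentraxin Ptx3 (-2.38) and Cxcl12 (-1.62). Ptx3 read 8.37, 7.91, 7.72 and 5.54. The transmembrane chemokine Cxcl16 was higher, with 4.44, 4.36, 5.47 and 6.54 (2.18).

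Enzymes that cut the matrix were among the genes higher in knockout-labelled hypertonic cells. Of 20 measured proteases and inhibitors 3 were at least 2-fold higher, all of them secreted metalloproteinases. Mmp13, a collagenase, read 3.62, 3.76, 4.17 and 6.46 (2.70, and 1.02 against the dim limit). Mmp10, a stromelysin, read 4.36, 4.19, 4.39 and 6.05 (1.86, and 0.61 against the limit). Both passed the dim limit in knockout-labelled cells in salt and in no other pool. Mmp3, also a stromelysin, read 4.19, 4.08, 5.63 and 6.38 (2.30 under salt and 1.44 without it), above the limit in both knockout-labelled pools. Its hypertonic difference against the limit was 0.94, so of the 3 only Mmp13 stayed past 2-fold when the dim wild-type signal was raised to the limit. A further 7 were lower: the gelatinase Mmp2 (-1.72), Mmp16 (-2.06), the inhibitor Timp3 with 9.19, 9.96, 9.55 and 8.04 (-1.93), Adamts5 (-1.65), Serpinf1 (-1.51), Plat (-1.04) and Mmp11 (-1.02).

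Some immediate early and ERK-dependent genes were higher too. Of 24 measured AP-1 and immediate early genes 3 were at least 2-fold higher and 0 lower, against 2.57% and 6.43% of all measured genes. The list's median was 0.27 against -0.30 in isotonic medium. Jun, a subunit of the AP-1 factor, read 8.29, 7.23, 7.84 and 8.50 (1.27 and -0.45). Ier5 differed by 1.44 and Maff by 1.41 (0.89 against the dim limit). For all 3 the wild-type hypertonic signal was the lowest of the 4 and the knockout-labelled hypertonic signal the highest. Junb (0.92), Atf3 (0.94) and Fosl1 (0.81) did not reach 2-fold, and Egr1 had the opposite sign (-0.80). The list of ERK feedback genes was split, with 2 of 13 measured at least 2-fold higher and 2 lower, to be read against the same shares. The higher ones were the ETS factors Etv4 and Etv5, induced by ERK signalling, which read 5.78, 5.04, 5.42 and 6.59, and 5.52, 4.80, 5.72 and 6.59 (1.55 and 1.79). A second probe set of Etv5 gave 0.86, under 2-fold. On the lower side were Dusp1, a phosphatase that switches off MAP kinases, in both media (9.02, 9.89, 6.84 and 7.49), and Spry1, an inhibitor of receptor tyrosine kinase signalling (-1.20, and -0.89 against the dim limit).

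The AP-1 site TGAGTCA, searched on both strands, was in the promoters of 3 of the 7 higher protease, AP-1 and ERK genes for which RefSeq gave one (of 8). These were the metalloproteinases, which lie in a cluster on chromosome 9. The share over all promoters was 5.17%, with 3.25% over those of measured genes and 6.28% over those of all higher genes. The sequences are shown because the 3 genes share the site and all had their highest signal in knockout-labelled hypertonic cells. Capitals mark the site, which begins 35, 46 and 63 bases before the start of Mmp13, Mmp3 and Mmp10.
Mmp13, chr9:7272264-7272513, plus strand: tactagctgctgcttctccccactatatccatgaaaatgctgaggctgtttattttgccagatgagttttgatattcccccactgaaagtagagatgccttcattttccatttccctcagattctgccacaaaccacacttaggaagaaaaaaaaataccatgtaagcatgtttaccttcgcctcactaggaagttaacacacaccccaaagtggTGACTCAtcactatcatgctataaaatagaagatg
Mmp3, chr9:7445572-7445821, plus strand: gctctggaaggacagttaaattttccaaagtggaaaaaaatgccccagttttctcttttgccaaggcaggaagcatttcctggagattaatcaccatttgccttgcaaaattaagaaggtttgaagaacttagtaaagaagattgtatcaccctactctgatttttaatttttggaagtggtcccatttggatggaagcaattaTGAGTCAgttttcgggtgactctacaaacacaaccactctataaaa
Mmp10, chr9:7502092-7502341, plus strand: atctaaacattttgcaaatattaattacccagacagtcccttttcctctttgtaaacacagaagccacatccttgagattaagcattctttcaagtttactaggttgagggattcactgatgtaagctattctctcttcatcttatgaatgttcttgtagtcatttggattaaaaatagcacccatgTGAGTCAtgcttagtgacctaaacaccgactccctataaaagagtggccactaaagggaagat

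Genes regulated by p53, the factor that answers DNA damage and other stress, had a list median of 0.55 under salt and 0.26 without it. Of 26 measured 6 were at least 2-fold higher and 1 lower, against 2.57% and 6.43% of all measured genes. Mdm2, the ligase that degrades p53, read 7.61, 7.52, 8.44 and 9.19 (1.67). Ccng1 (cyclin G1) read 9.60, 9.14, 9.91 and 10.60 (1.45), and Plk3 differed by 1.75 under salt and 0.37 without it. Trp53inp1 differed by 1.51 and 1.58, so its difference was as large without salt. Eda2r, dim in wild-type hypertonic cells, differed by 1.60 but by 0.24 against the dim limit. Pmaip1, the pro-apoptotic protein Noxa, differed by 1.02. Sesn1 was the exception, with 7.45, 8.96, 7.55 and 7.12 (-1.84), high only in wild-type hypertonic cells. The ribosome biogenesis list had a median of 0.36 under salt and -0.20 without it. Of its 28 measured genes 2 were at least 2-fold higher, against 2.57% of all measured genes. Nucleostemin, Gnl3, was 1 of the 2 (8.02 in wild-type and 9.11 in knockout-labelled hypertonic cells).

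**Figure D4:**
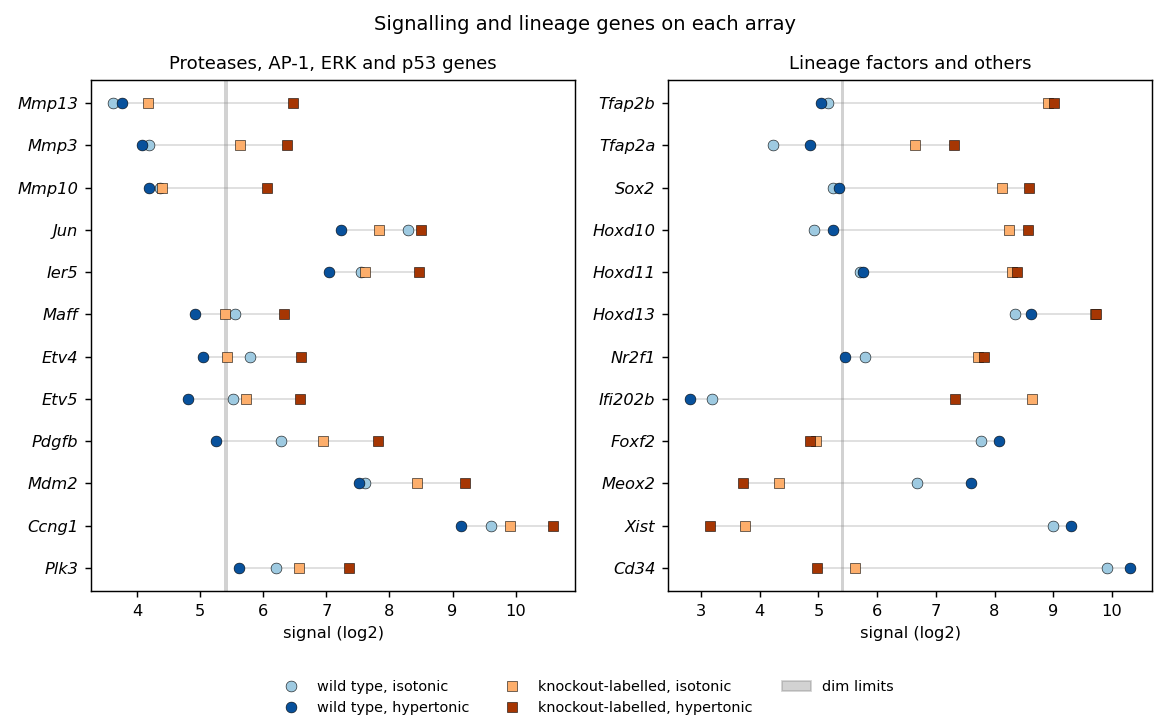
Signal (log2) of protease, AP-1, ERK and p53 genes (left) and of lineage factors and other genes (right) on each array; circles are wild type, squares knockout-labelled, dark colours hypertonic, and the grey band spans the dim limits. On the left the dark red square is rightmost for every gene drawn, with the light orange square between it and the dark blue circle; on the right the 2 squares lie close together and apart from the 2 circles in most genes.

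A further group separated the genotypes in both media. Tfap2b, a factor of neural crest and limb, read 5.16, 5.04, 8.91 and 9.01 (3.96 under salt and 3.74 without it, so nearly the same), and its relative Tfap2a differed by 2.45 and 2.41. Sox2, a factor of pluripotent and neural progenitor cells, read 5.25, 5.35, 8.12 and 8.59 (3.24 and 2.87). Markers of these lineages did not follow as a set. Of 4 measured neural progenitor markers 1 was at least 2-fold higher, Sox2, and 1 lower, Tubb3 (-1.07), with a median of -0.02. Of 3 measured neural crest and Schwann markers 0 were higher and 1 lower, Pmp22 (-2.25). Among Hox genes, which specify position along the body and limb axes, 4 of 14 measured were at least 2-fold higher, against 2.57% of all genes, and 0 were lower; the 4 belong to the Hoxd cluster. Hoxd10 read 4.93, 5.24, 8.25 and 8.58 (3.33 and 3.32), and Hoxd11, Hoxd9 and Hoxd13 differed by 2.62, 1.14 (0.33 against the dim limit) and 1.11 under salt. On the lower side, Foxf2 read 7.77, 8.08, 4.96 and 4.85 (-3.23 and -2.82) and Meox2 6.69, 7.60, 4.34 and 3.72 (-3.89 under salt, and less negative without it at -2.35), both factors of embryonic mesenchyme. Over 30 measured lineage factors outside the Hox genes, 7 were higher and 5 lower.

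Some genes known to vary with strain, sex or imprinting also differed. Ifi202b, an interferon-inducible gene whose expression differs between inbred mouse strains, was dim in both wild-type pools and read 8.63 and 7.32 in isotonic and hypertonic knockout-labelled cells, a hypertonic difference of 4.51 that is 1.88 against the dim limit. Xist, the noncoding RNA of X inactivation in females, read 8.99, 9.31, 3.75 and 3.16 (-6.15 and -5.25). The Y-linked genes Eif2s3y, Kdm5d and Uty were dim on all 4 arrays. Of 11 measured imprinted genes 6 were at least 2-fold lower and 0 higher, against 3 lower in isotonic medium. Over all measured genes 6.43% were lower in hypertonic and 1.28% in isotonic medium. Mest (-2.62 and -1.11), Peg3 (-2.59 and -2.03) and Plagl1 (-1.40 and -1.23) passed the limit in both media, while Peg10 (-1.22 and -0.81), Grb10 (-1.29 and -0.50) and Sgce (-1.45 and 0.12) did so under salt only. Their part in the other differences was not tested, and whether the pools came from littermates was not given in the sources used here.

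Several lists of general cell functions held few or 0 genes past 2-fold in salt. Over all measured genes 6.43% were at least 2-fold lower and 2.57% higher, shares at which a list of 24 to 30 genes holds few. A count of 0 in such a list is therefore near these shares and does not set the list apart. Of 29 measured genes each, the DNA replication and mitosis lists had 0 past 2-fold in either direction, with medians of 0.12 and -0.03. The proteasome (30 measured), oxidative phosphorylation (26), endoplasmic reticulum folding and stress (25) and cholesterol and fatty acid synthesis (24) lists also had 0 past 2-fold, with medians of -0.07, -0.08, -0.12 and -0.20. Of 32 measured targets of ATF4, the factor of the amino acid stress response, 1 was lower, the lipoprotein receptor Vldlr (-1.17). The NRF2 list held Nqo1, a quinone reductase, with 7.25, 8.08, 6.71 and 5.57 (-2.52), and Gsr, glutathione reductase, at 1.18, with a median of 0.06 over 24 genes. By contrast, 4 of 17 measured cytosolic chaperones were lower, against 6.43% of all measured genes. They were Cryab, Hspa1a (-1.03), Hspa4l and the small heat shock protein Hspb6 (-1.50), and the list median was 0.03. The 11 measured housekeeping genes lay between -0.33 and 0.45.

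**Figure D5:**
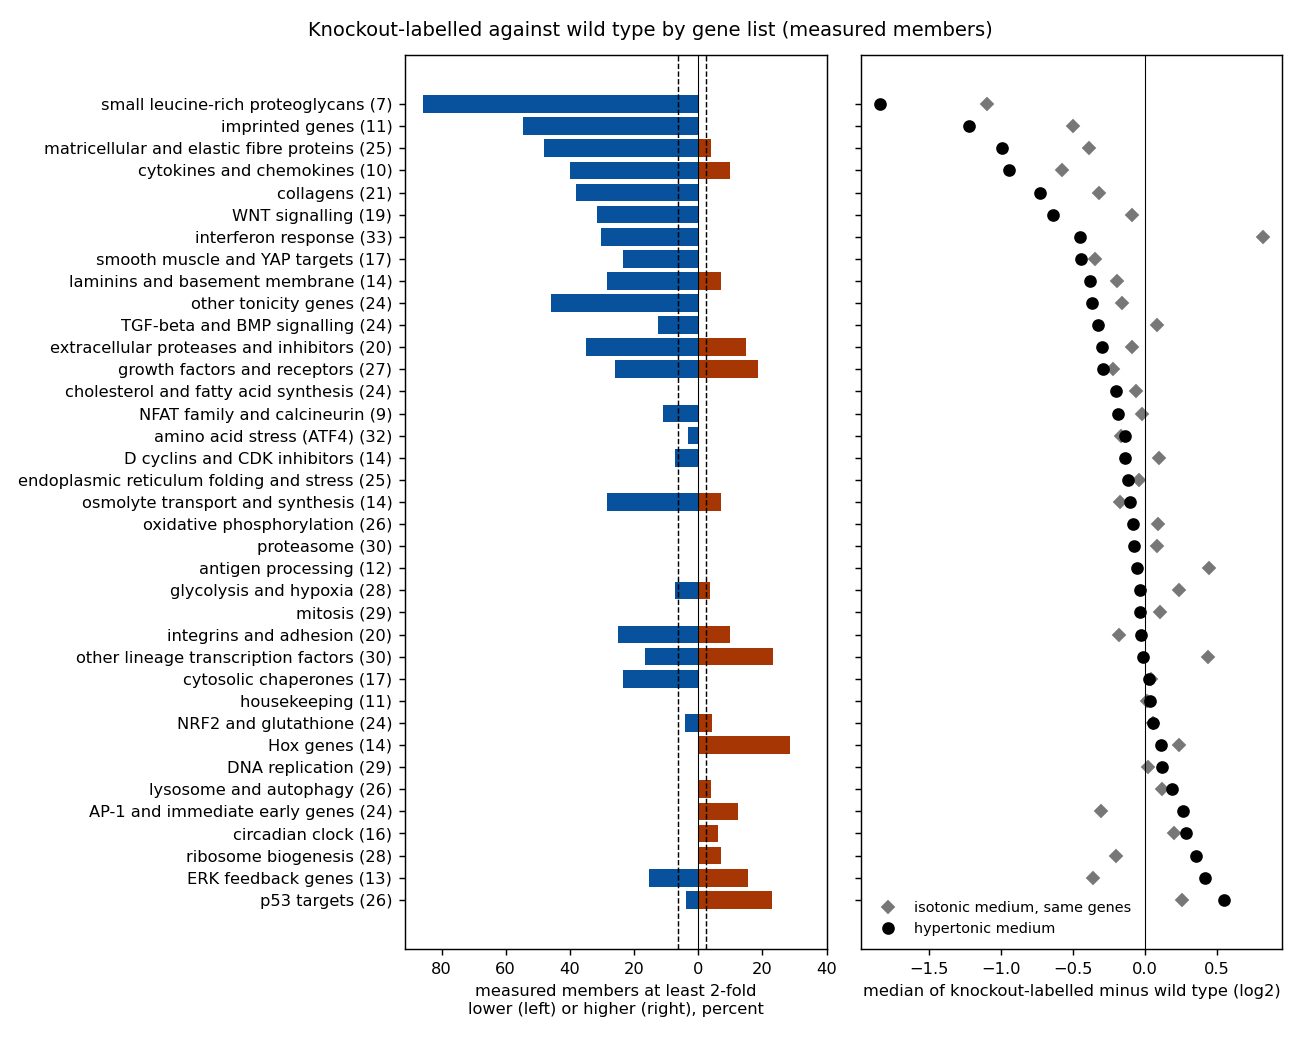
Left: percent of each list's measured members (number in brackets) at least 2-fold lower (blue) or higher (red) in knockout-labelled hypertonic cells, with dashed lines at 6.43% and 2.57%, the shares of all measured genes. Right: the median difference (log2) of the members in hypertonic (circles) and isotonic (diamonds) medium; of the lists drawn, gene lists with at least 7 measured members, small leucine-rich proteoglycans have the most negative hypertonic median (-1.84, and -0.59 with no dim limit), p53 targets the most positive (0.55), and interferon response genes the largest gap between the media.

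Both pools carried fibroblast markers. Of 13 markers 11 were measured, and Vim read 12.57 and 12.50, Fn1 11.09 and 11.32 and Prrx1 10.43 and 9.98 in wild-type and knockout-labelled hypertonic cells. However, 7 of the 11 were at least 2-fold lower in knockout-labelled cells, all of them named above, with a list median of -1.55 against -0.34 in isotonic medium. Dcn and Lum, usual fibroblast genes, were dim in both hypertonic pools (4.66 and 4.03, and 2.57 and 2.62). The 8 endothelial markers were all dim, at 2.93 to 4.76 in wild-type and 2.87 to 4.91 in knockout-labelled hypertonic cells, Pecam1 and Cdh5 included. Of 9 macrophage and leukocyte markers only Cd68 was measured (0.15), and Ptprc read 3.22 and 3.32. Of 10 epithelial markers 5 were measured and 0 passed 2-fold, with Epcam dim in both pools. Of 7 pluripotency markers only Sox2 was measured, while Pou5f1 read 3.25 and 3.31.

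The difference also rests on which of the knockout-labelled arrays is the hypertonic one. With the array labelled knockout isotonic set against wild-type hypertonic in its place, 261 genes were at least 2-fold lower and 190 higher. The median of the interferon list was then 0.17 and that of the small leucine-rich proteoglycans -1.41.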

How the data were processed

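The deposited table holds 1 log2 value per probe set and array, made by the authors; per the submitters' processing notes MAS5 was used, with no version, and no background correction or scaling was given in the sources used here. On inspection, the log2 scale was read from the values, 1.57 to 13.94. The array medians were 4.91, 4.90, 4.87 and 4.89, in the order used above, and the number of arrays limits the precision. Values were used as deposited.

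Of 35557 probe sets 21789 had 1 gene in the platform annotation, 1621 several and 12147 none; the last 2 kinds were left out. Where a gene had several probe sets, the brightest by its 4-array mean was kept. Differences were taken between 2 arrays, with no test, in Python 3.11.15 with pandas 2.3.3 and numpy 2.4.6. The counting was tested on simulated data with known differences. R 4.3.3 with limma 3.58.1 gave the quantile and loess alternatives. Further alternatives were median-centred differences, no dim limit, a limit at the 75th percentile or on both arrays, averaging a gene's probe sets, 1.5-fold, and the other knockout-labelled array.

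Members and lists (39 gene lists and 12 cell type lists) were chosen with earlier results of these data known, and 1 gene was removed from the osmolyte list as placed in error. Genes named were drawn from a set made by rule, of which the text uses a part. The set held Nfat5 and the 20 highest and 20 lowest differences, leaving out provisional symbols. From every list it took measured members beyond 2-fold plus the 4 whose difference was largest in size. Others, such as Vim, Fn1 or Gde1, were named after their values were seen, as were the genes nearest the limits. Medians cover measured members only, so members that passed the dim limit on 1 array had to differ there; they describe the lists and support nothing. Promoters are RefSeq's, for GRCm38.p6.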

Additional observations from a re-analysis of the deposited data

Results flagged for a closer look

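Omd and the interferon genes Irf7, Gbp7 and Oasl2 passed 2-fold in opposite directions in the 2 media. Omd, a proteoglycan of bone and other connective tissue, differed by -1.84 in hypertonic and 1.24 in isotonic medium, and its signal was dim on 2 of the 4 arrays. Irf7 differed by -1.26 and 1.34. Gbp7, a guanylate-binding protein, read 6.96, 7.65, 8.13 and 6.57 in the order used above, that is -1.08 and 1.17. Oasl2, a relative of the oligoadenylate synthetases, read 7.80, 8.87, 8.90 and 7.81, that is -1.06 and 1.10. In each of the 4 genes the high signals were those of wild-type hypertonic and knockout-labelled isotonic cells. With 1 pool on each side the difference between the media was not tested. Of the 667 genes lower by at least 2-fold in hypertonic medium, 9 were higher by that limit in isotonic medium. The other 5 were Ddx60, Enpp3, Ifit3b, Lgals3bp and Trim30a. Over all genes measured in isotonic medium the share higher by that limit was 1.59%.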

How the results depend on the processing

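No paired analysis was possible because each group is 1 pooled array. Of 171 genes past 2-fold that the naming rule took, 92 were measured in every setting on the arrays as labelled, and 89 of these stayed past 2-fold. The others were dim on 1 of the 2 arrays (58) or under the 75th percentile (59), with some in both, and so not measured in those settings. In the settings that measured them 163 of the 171 stayed past 2-fold and 0 reversed; the 8 that did not were Hspa1a, Podnl1, Col4a1, Plat, Mmp11, Kremen1, Ciart and Tubb3. Quantile normalization gave 314 higher and 593 lower genes and moved the median of all genes to 0.04; loess gave 265 and 671. With the dim limit at the 75th percentile fewer genes were tested (5446), and 138 were higher and 319 lower. At 1.5-fold it was 905 and 1562. With the knockout-labelled isotonic array in place of the hypertonic one the lower count was 261, higher genes made up 42.1% of those counted against 28.6%, and 16 of 49 list medians changed sign. Under the other settings 8 list medians changed sign, 2 of them under scaling. With other dim limits 28 of 49 list medians moved by over 1.5 times. With no limit, the 75th percentile and the limit on both arrays in turn, small leucine-rich proteoglycans (-1.84) were at -0.59, -2.98 and -1.05, cytokines (-0.94) at -0.13, -1.21 and -0.94, WNT genes (-0.64) at -0.17, -0.69 and -0.64, and imprinted genes (-1.22) at -0.49, -0.46 and -0.27. With a dim signal set to the limit, 15 of the 171 genes were under 2-fold: Prl2c5, Mmp3, Mmp10, Trim12a, Slc6a12, Kcnj2, Omd, Itga11, Maff, Spry1, Wnt5a, Adm, Eda2r, Hoxd9 and Tnnt2.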

Other observations

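Several of the lowest genes belonged to none of the groups above. Itm2a, a membrane protein of developing cartilage and muscle, read 6.26, 8.83, 4.38 and 4.25 in the order wild-type isotonic, wild-type hypertonic, knockout-labelled isotonic and knockout-labelled hypertonic, a difference of -4.58. Slc1a3, a glutamate transporter, read 6.43, 8.33, 5.62 and 4.43 (-3.90). Prss35, a serine protease, was above the dim limit only in wild-type hypertonic cells, with 4.74, 7.87, 4.93 and 4.44 (-3.43 under salt and 0.19 without it). Nrep read 7.43, 9.21, 7.03 and 5.85 (-3.36), and Penk, the precursor of the enkephalins, 8.11, 10.11, 8.02 and 7.33 (-2.78). All 5 were highest in wild-type hypertonic and lowest in knockout-labelled hypertonic cells.

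Among the highest genes outside the groups, Arg1, the arginase that makes ornithine and urea, read 4.37, 4.06, 4.86 and 6.73 (2.67 under salt and 0.49 without it). Gpnmb, a membrane glycoprotein of lysosome-rich cells, read 6.28, 5.94, 8.65 and 9.85 (3.90 and 2.36). Myo5c, an unconventional myosin, and Stmn2, a microtubule regulator of neurons, were higher in both media (3.20 and 3.79, and 2.53 and 3.34).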
